A study of Mus musculus with 40 samples.

Results

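The mitochondrial carriers are the proteins that move nucleotides, phosphate, organic acids, amino acids, cofactors and metal ions across the inner mitochondrial membrane, and their genes carry symbols of the Slc25 family. The 46 carriers described here are all protein-coding genes of the GENCODE M21 basic annotation of the mouse genome (GRCm38) whose symbol starts with Slc25a and a digit, apart from 1 symbol that is not analysed here. They were taken from 21938 protein-coding genes on the autosomes and both sex chromosomes. Symbols chose them and no measured value entered that rule, though the members were chosen with earlier results of these data known. ChIP-Seq of 4 histone marks examined them in iBAT (brown fat) from C57BL/6N mice, wild type and 20 weeks of age. Mice 1 and 2 were warm and on chow (NCD), mice 4 and 5 were on chow and cold treated, mice 7 and 8 were warm and on a high-fat diet (HFD), and mice 10 and 11 were on HFD and cold treated. Cold treatment was 24 h at 4 °C, and the HFD lasted 12 weeks from an age of 8 weeks. Each mouse gave 1 peak list per mark, so that 32 lists came from 8 mice, and each list had been called against the mouse's own input library. The labels give 1 mouse number per library, whereas the methods speak of the tissue of 2 mice in each sequencing experiment, so a library may hold 1 animal or a pool. A gene was counted as marked in a mouse when any base of a peak lay within 1000 bp of any of its start sites.

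H3K4me3 (trimethylated lysine 4 of histone H3) lies at the start of genes that are active or ready to be, and H3K27ac (acetylated lysine 27) lies at active promoters and enhancers. H3K4me1 is spread over enhancers and promoter flanks, and H3K27me3 marks genes that are silenced by Polycomb. In brown fat, carriers feed a respiratory chain whose proton gradient is spent as heat by UCP1, itself a relative of the carriers that is named outside their symbol series. The lists were of unequal length. They held 13517 to 24104 peaks for H3K4me3, 3224 to 40604 for H3K27ac, 12 to 27568 for H3K4me1 and 20 to 6428 for H3K27me3. Mouse 7 had the shortest list for H3K4me3, H3K27ac and H3K4me1. The tissue label was checked against marker genes. All 10 brown adipocyte markers, among them Ucp1, Cidea and Pparg, carried H3K4me3 in at least 6 mice, and 8 of them carried H3K27ac in at least 6. None of the 4 liver and 3 testis markers had an H3K4me3 peak in any mouse. All 4 endothelial markers had H3K4me3 and H3K27ac in at least 6 mice, so the tissue probably held endothelial cells too. Of 6 skeletal muscle markers, 1 (Mylpf) had H3K4me3 in at least 6 mice and 3 had it in none. Of 4 macrophage markers, 1 (Cd14) had it in at least 6 and 1 in none. None of 3 neuron markers had it in at least 6. These lists do not settle whether muscle cells or macrophages were present. In a bulk tissue, fewer marked cells and less mark per cell cannot be told apart.

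The bases before the start sites of 5 carriers are shown because 2 groups of relatives with like transport roles were marked very differently. Slc25a4, Slc25a5 and Slc25a31 encode the ADP/ATP carriers ANT1, ANT2 and ANT4, and Slc25a39 and Slc25a40 encode a glutathione carrier and its closest relative. Each stretch ends at the base before the most upstream start site and runs 5′ to 3′ on the gene's strand in GRCm38.p6. CpG dinucleotides are in capitals. The first 4 stretches have 200 bases, and that of Slc25a40 was kept to 133 bases because the exons of Dbf4, the divergent neighbour, begin beyond it. They lie at chr8:46211285-46211484 (minus strand), chrX:36795451-36795650 (plus strand), chr3:40708655-40708854 (plus strand), chr11:102407545-102407744 (minus strand) and chr5:8422717-8422849 (plus strand).
Slc25a4: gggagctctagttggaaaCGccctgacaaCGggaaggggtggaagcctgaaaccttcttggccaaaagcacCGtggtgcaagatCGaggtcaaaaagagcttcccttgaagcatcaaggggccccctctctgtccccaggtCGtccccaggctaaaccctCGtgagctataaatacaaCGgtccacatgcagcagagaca
Slc25a5: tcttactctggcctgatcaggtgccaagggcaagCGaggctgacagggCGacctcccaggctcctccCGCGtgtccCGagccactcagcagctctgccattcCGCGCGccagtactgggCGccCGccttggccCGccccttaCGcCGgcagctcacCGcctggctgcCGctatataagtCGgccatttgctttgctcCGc
Slc25a31: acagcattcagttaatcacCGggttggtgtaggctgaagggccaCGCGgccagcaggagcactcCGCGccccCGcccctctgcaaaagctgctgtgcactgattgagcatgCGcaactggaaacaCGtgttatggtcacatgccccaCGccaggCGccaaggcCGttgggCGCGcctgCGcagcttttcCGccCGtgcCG
Slc25a39: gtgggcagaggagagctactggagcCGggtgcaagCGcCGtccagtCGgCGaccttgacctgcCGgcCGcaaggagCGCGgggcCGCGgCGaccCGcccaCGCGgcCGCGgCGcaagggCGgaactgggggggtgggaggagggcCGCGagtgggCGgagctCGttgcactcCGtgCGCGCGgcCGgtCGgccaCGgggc
Slc25a40: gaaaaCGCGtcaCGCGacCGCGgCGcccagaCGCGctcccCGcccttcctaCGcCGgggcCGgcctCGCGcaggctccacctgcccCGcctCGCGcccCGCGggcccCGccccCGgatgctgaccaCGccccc
The stretch of Slc25a4 held 7 CpG and a TATAAA, while those of Slc25a5 and Slc25a31 each held 17 CpG. The stretch of Slc25a39 held 30 CpG, and the shorter one of Slc25a40 held 23. Slc25a31 was without any mark, and Slc25a40 had H3K4me3 in every mouse but H3K27ac in none.

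Most carriers were marked in brown fat, and H3K4me3 divided the family sharply. H3K4me3 lay at 40 of the 46 carriers (87.0%) in 6 or more mice and at the other 6 in no mouse, so that no carrier fell between. Over all protein-coding genes, 57.9% had H3K4me3 in 6 or more mice and 35.1% in none. In all 8 mice H3K4me3 was found at 33 carriers (71.7%), beside 43.3% of all genes. H3K27ac was found at 33 carriers in at least 1 mouse (71.7%, beside 49.6% of all genes), at 23 in 6 or more (50%, beside 27.6%) and at 5 in all 8 (10.9%, beside 3.74%). Among them were Slc25a17, Slc25a39, Slc25a46 and Slc25a51. No carrier had H3K27ac without H3K4me3. Mouse 7, with its short H3K27ac list, decided the count in all mice. Without it, 16 carriers (34.8%, beside 17.0% of all genes) had H3K27ac in each of the remaining 7 mice, and without mice 7 and 10 it was 20 (43.5%, beside 26.3%). H3K4me1 reached 18 carriers in at least 1 mouse, and H3K27me3 reached none, beside 6.89% of all genes.

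**Figure D1:**
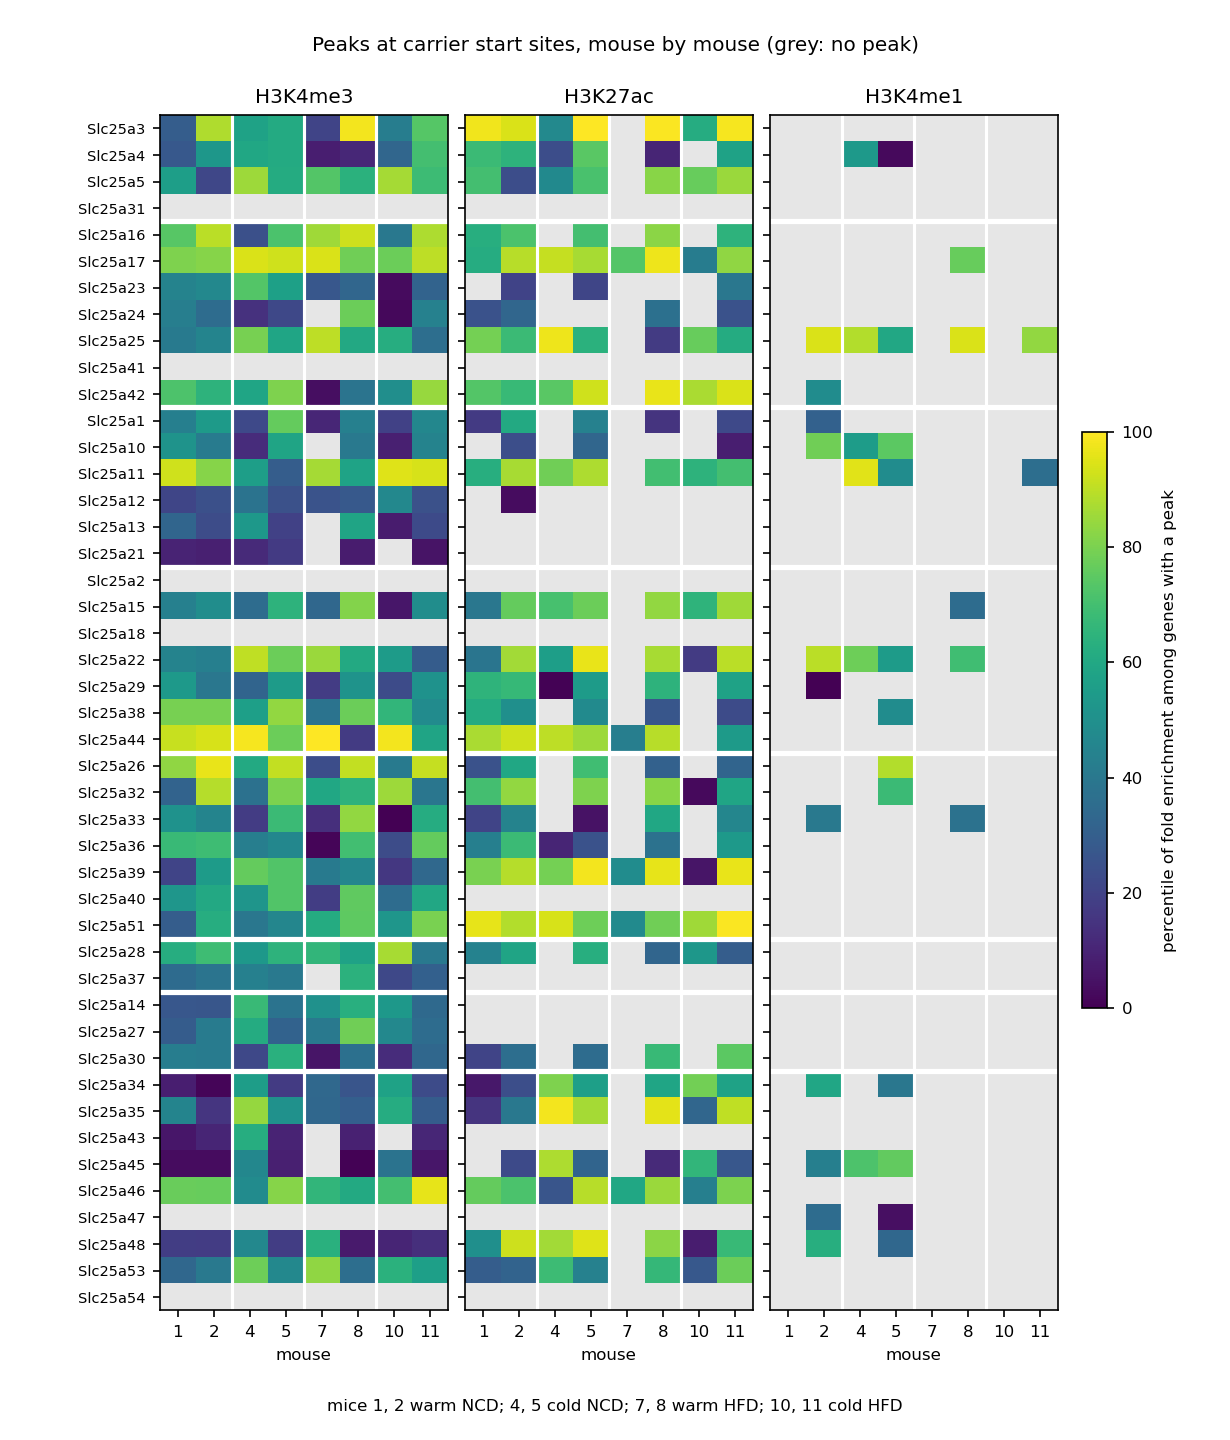
Each row is 1 of 45 carriers, in blocks by transport role, and each column is 1 mouse. Colour gives the percentile (0 to 100) of the carrier's highest fold enrichment among all genes with a peak in that list, and grey is no peak. H3K4me3 fills 32 rows in all 8 mice and leaves 6 rows empty, while H3K27ac is nearly empty in mouse 7.

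Counted mouse by mouse, H3K4me3 was at 40 carriers in 6 of the mice, at 38 in mouse 10 and at 33 in mouse 7. The 7 carriers that mouse 7 missed were Slc25a10, Slc25a13, Slc25a21, Slc25a24, Slc25a37, Slc25a43 and Slc25a45, and mouse 10 missed Slc25a21 and Slc25a43 of these. For H3K27ac the counts in mice 1, 2, 4, 5, 7, 8, 10 and 11 were 29, 33, 21, 31, 6, 30, 19 and 32 carriers. Mouse 2 had every one of the 33 carriers that were acetylated in any mouse. Mouse 4 lacked 12 of them although its list, with 30544 peaks, was longer than that of mouse 2 with 28433, and over all genes it also covered less (32.5% against 44.3%). The carriers exceeded the share of all genes in each of the 8 lists of both marks. For instance, H3K27ac was at 71.7% of carriers in mouse 2 (95% Clopper-Pearson interval 56.5 to 84.0%, which covers counting error alone) and at 44.3% of all genes.

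**Figure D2:**
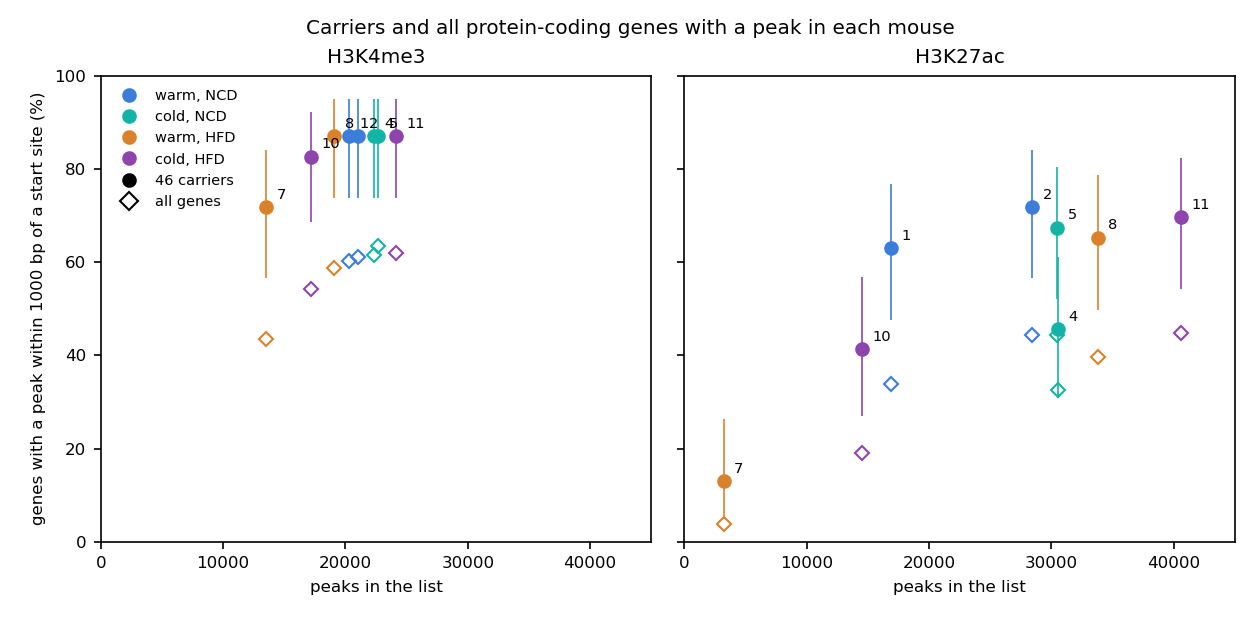
The percentage of the 46 carriers (filled circles, 95% Clopper-Pearson intervals, mouse number beside them) and of all protein-coding genes (open diamonds) with a peak is plotted against the number of peaks in the list. Circles lie above the diamonds of the same mouse in every list, and both are lowest in mouse 7, at 6 of 46 carriers and 3.86% of genes for H3K27ac.

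Values at a gene are given as a percentile of its highest fold enrichment within 1000 bp among all protein-coding genes with a peak in the same list, since fold enrichments shift with the depth of a library. These genes numbered 9566 to 13927 for H3K4me3. For H3K27ac they numbered 847 in mouse 7, 4156 in mouse 10 and 7137 to 9847 in the other mice. Percentiles from lists that cover unlike numbers of genes are therefore not on one scale. Over the mice in which they had a peak, the carriers' median percentiles ranged from 6.13 to 92.7 for H3K4me3, with a midpoint of 47.2. For H3K27ac they ranged from 3.48 to 97.8, with a midpoint of 68.1. Thus 19 of 40 carriers lay above the 50th percentile for H3K4me3 and 20 of 33 for H3K27ac. Their H3K4me3 peaks had a median width of 1568 bp and their H3K27ac peaks one of 962 bp.

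The exchange of ATP for ADP and the import of phosphate are the last transport steps of oxidative phosphorylation. Slc25a3, the phosphate carrier (chr10:91116574-91124059), had the highest median H3K27ac percentile of all carriers. Its H3K27ac percentiles in mice 1, 2, 4, 5, 8, 10 and 11 were 97.8, 94.4, 46.9, 99.9, 99.6, 62.0 and 98.5, and mouse 7 had no peak. Mice 4 and 10, both cold treated but on different diets, were the low ones, and the other cold mice 5 and 11 were as high as the warm mice. Its H3K4me3 was at a median percentile of 59.2 (20.6 to 98.2 in 8 mice). Slc25a4 (chr8:46206797-46211284), the ADP/ATP carrier of heart, muscle and brown fat, had H3K4me3 in all 8 mice and H3K27ac in 6. Its H3K27ac percentiles were 68.1 and 64.6 in the warm NCD mice, 23.7 and 74.2 in the cold NCD mice, 10.2 in mouse 8 and 57.5 in mouse 11. The 2 mice of 1 condition therefore differed as much as conditions did. Slc25a5 (chrX:36795651-36798807), the widely expressed ADP/ATP carrier, had H3K27ac in 7 mice at a median percentile of 71.4 (23.6 to 85.0) and H3K4me3 in all 8 at 66.1 (21.3 to 86.5). Slc25a31 (chr3:40708855-40726096), the ADP/ATP carrier of the testis, had no peak of any mark in any mouse. Over the 32 lists, the presence of peaks was most like that of Slc25a4 at Slc25a11, Slc25a26, Slc25a36 and Slc25a38, which tied with 2 lists of difference each.

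Among the carriers of ATP-Mg, phosphate and coenzyme A, 6 of 7 had H3K4me3 in 6 or more mice and 3 had H3K27ac in 6 or more. Slc25a17, the peroxisomal carrier of coenzyme A and related cofactors, had H3K27ac in all 8 mice at a median percentile of 85.2 (42.1 to 97.4). Slc25a42, a mitochondrial coenzyme A carrier, had it in 7 at 87.3 (67.5 to 96.7). The ATP-Mg/phosphate carriers set the adenine nucleotide pool of the matrix, and some of them respond to calcium. Of the ATP-Mg/phosphate carriers, Slc25a25 had H3K27ac in 7 mice, Slc25a24 in 4, Slc25a23 in 3 and Slc25a41 in none. Slc25a41 also lacked H3K4me3. The H3K27ac percentiles of Slc25a25 were 79.0 and 68.1 in mice 1 and 2, 97.3 and 64.0 in mice 4 and 5, 17.3 in mouse 8, and 76.9 and 61.4 in mice 10 and 11. One cold NCD mouse was thus the highest and the warm HFD mouse 8 the lowest, while the other cold NCD mouse lay among the warm NCD mice.

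Slc25a25 (chr2:32414487-32451445) had 2 marked promoters. It is 1 of 5 carriers with start sites more than 2000 bp apart. H3K4me3 lay at both its most upstream start and at the start 27440 bp inside the gene in all 8 mice. The inner start had H3K27ac in 7 mice and H3K4me1 in 5. The upstream start had H3K27ac in 6 mice and H3K4me1 in 1, and it lies 965 bp from a start site of Naif1 on the opposite strand. At the inner start the H3K4me3 fold enrichment was 20.7, 18.99, 34.9, 22.1, 11.6, 5.76, 13.6 and 21.4 in mice 1, 2, 4, 5, 7, 8, 10 and 11, and at the upstream start it was 24.6, 28.6, 12.8, 80.7, 6.23, 14.9, 7.45 and 17.0. The inner start therefore exceeded the upstream one in mice 4, 7, 10 and 11, in 3 of the 4 cold mice and 1 of the 4 warm mice. H3K27ac was higher at the inner start in every one of the 6 mice with a peak at both except mouse 8, as in mouse 4 with a fold enrichment of 20.0 against 8.69. A further group of starts, 20326 bp inside the gene, had H3K4me3 in 3 mice at fold enrichments of 3.51 to 5.13. Slc25a22 likewise had 2 starts with H3K4me3 in all 8 mice, 3298 bp apart, with H3K27ac in 7 mice at the inner and 5 at the outer. In Slc25a21, Slc25a36 and Slc25a53 the inner starts had no H3K27ac in any mouse. These start groups were examined after their values were seen and were not tested.

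The carriers of di- and tricarboxylates include the malate-aspartate shuttle, which brings reducing equivalents into mitochondria. All 6 had H3K4me3 in 6 or more mice, and 1 of them had H3K27ac in 6 or more, beside 57.9% and 27.6% of all genes. That gene was Slc25a11, the 2-oxoglutarate/malate carrier, with H3K27ac in 7 mice at a median percentile of 70.1 (62.6 to 87.8). Slc25a1, the citrate carrier that supplies acetyl units for fat synthesis, had H3K27ac in 5 mice. Its H3K27ac percentiles were 17.0 and 60.8 in mice 1 and 2, 43.8 in mouse 5, 15.1 in mouse 8 and 22.0 in mouse 11, so that its median of 22.0 was among the 3 lowest of all carriers. Slc25a10, the dicarboxylate carrier, had H3K27ac in mice 2, 5 and 11. Of the aspartate/glutamate carriers, Slc25a12 (aralar) had H3K27ac in mouse 2, at the 3.48th percentile, and Slc25a13 (citrin) in no mouse. Their H3K4me3 was present in 8 and 7 mice at median percentiles of 25.3 and 23.4, below the middle of the lists. Slc25a21, the oxodicarboxylate carrier, had H3K4me3 in 6 mice at a median percentile of 9.22 and no H3K27ac.

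Of 7 amino acid carriers, 5 had H3K4me3 in all 8 mice and 2 had it in none. Slc25a15, the ornithine carrier of the urea cycle, had H3K4me3 in 8 mice and H3K27ac in 7, while Slc25a2, the other ornithine carrier, had neither. Slc25a22, a glutamate carrier, likewise had 8 and 7, while Slc25a18, the other glutamate carrier, had neither. Slc25a44, the carrier of branched-chain amino acids, had the highest median H3K4me3 percentile of all carriers at 92.7 (17.5 to 99.9). Its H3K27ac percentiles were 87.3, 92.7, 89.9, 85.5, 42.8, 89.1 and 54.7 in mice 1, 2, 4, 5, 7, 8 and 11, and mouse 10 had no peak. Both NCD groups thus lay close together, and the 3 HFD values spread more widely. Of these, the 42.8 of mouse 7 was taken among 847 genes, against 8709 in mouse 8 and 9847 in mouse 11. The HFD values are therefore not on one scale. The summits of its H3K27ac peaks lay a median of 2485 bp inside the gene, the largest distance of any carrier. Slc25a29, a carrier of basic amino acids, had H3K27ac in 6 mice, and Slc25a38, a glycine carrier needed for haem synthesis, in 5.

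All 8 carriers of cofactors, nucleotides and glutathione had H3K4me3 in every mouse, and 5 of them had H3K27ac in 6 or more. Slc25a51, the carrier of NAD, had H3K27ac in all 8 at percentiles of 96.1, 88.5, 93.8, 78.0, 47.8, 78.5, 85.6 and 99.2 in mice 1, 2, 4, 5, 7, 8, 10 and 11. Mouse 7 had the lowest percentile, and the other 7 mice lay at 78.0 or above. The value of mouse 7 was taken among 847 genes, against 4156 to 9847 in the other mice, and is not on their scale. Slc25a32, Slc25a33, Slc25a36 and Slc25a26, for folate, pyrimidine nucleotides and S-adenosylmethionine, had H3K27ac in 6, 5, 6 and 5 mice. The glutathione carriers parted. Slc25a39 (chr11:102402985-102407946) had H3K27ac in all 8 mice at percentiles of 79.8, 88.8, 79.1, 98.2, 48.5, 96.1, 5.52 and 96.7. The lowest were those of mice 7 and 10, taken among the fewest genes, 847 and 4156. Slc25a40 (chr5:8422850-8454797) had H3K27ac in none of the 8 mice. Yet Slc25a40 had H3K4me3 in all 8 at a median percentile of 56.2 (18.3 to 75.7), beside 43.7 (16.4 to 76.5) for Slc25a39. The start sites of Slc25a40 lie 134 bp from one of Dbf4, a cell cycle kinase regulator, so that its H3K4me3 cannot be told apart from that of Dbf4.

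The mitoferrins, which import iron, differed in the same way. Slc25a28 had H3K4me3 in 8 mice and H3K27ac in 6, whereas Slc25a37, the mitoferrin known from developing red cells, had H3K4me3 in 7 and H3K27ac in none. The uncoupling-protein-like carriers Slc25a14 and Slc25a27, both known from the nervous system, had H3K4me3 in 8 mice each and no H3K27ac, and the related Slc25a30 had H3K27ac in 5. Among the 9 carriers with less defined substrates, 6 had H3K27ac in 6 or more mice, namely Slc25a34, Slc25a35, Slc25a45, Slc25a46, Slc25a48 and Slc25a53. Slc25a35 had a median H3K27ac percentile of 86.5 (14.9 to 98.1). Slc25a34, an orphan carrier, had H3K27ac percentiles of 6.30 and 24.1 in mice 1 and 2, 80.8 and 56.4 in mice 4 and 5, 58.6 in mouse 8, and 78.8 and 57.7 in mice 10 and 11. The warm NCD mice were the 2 lowest, and the warm HFD mouse 8 lay among the cold mice. Slc25a43 had H3K4me3 in 6 mice and no H3K27ac, and Slc25a45 had the lowest median H3K4me3 percentile at 6.13.

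**Figure D3:**
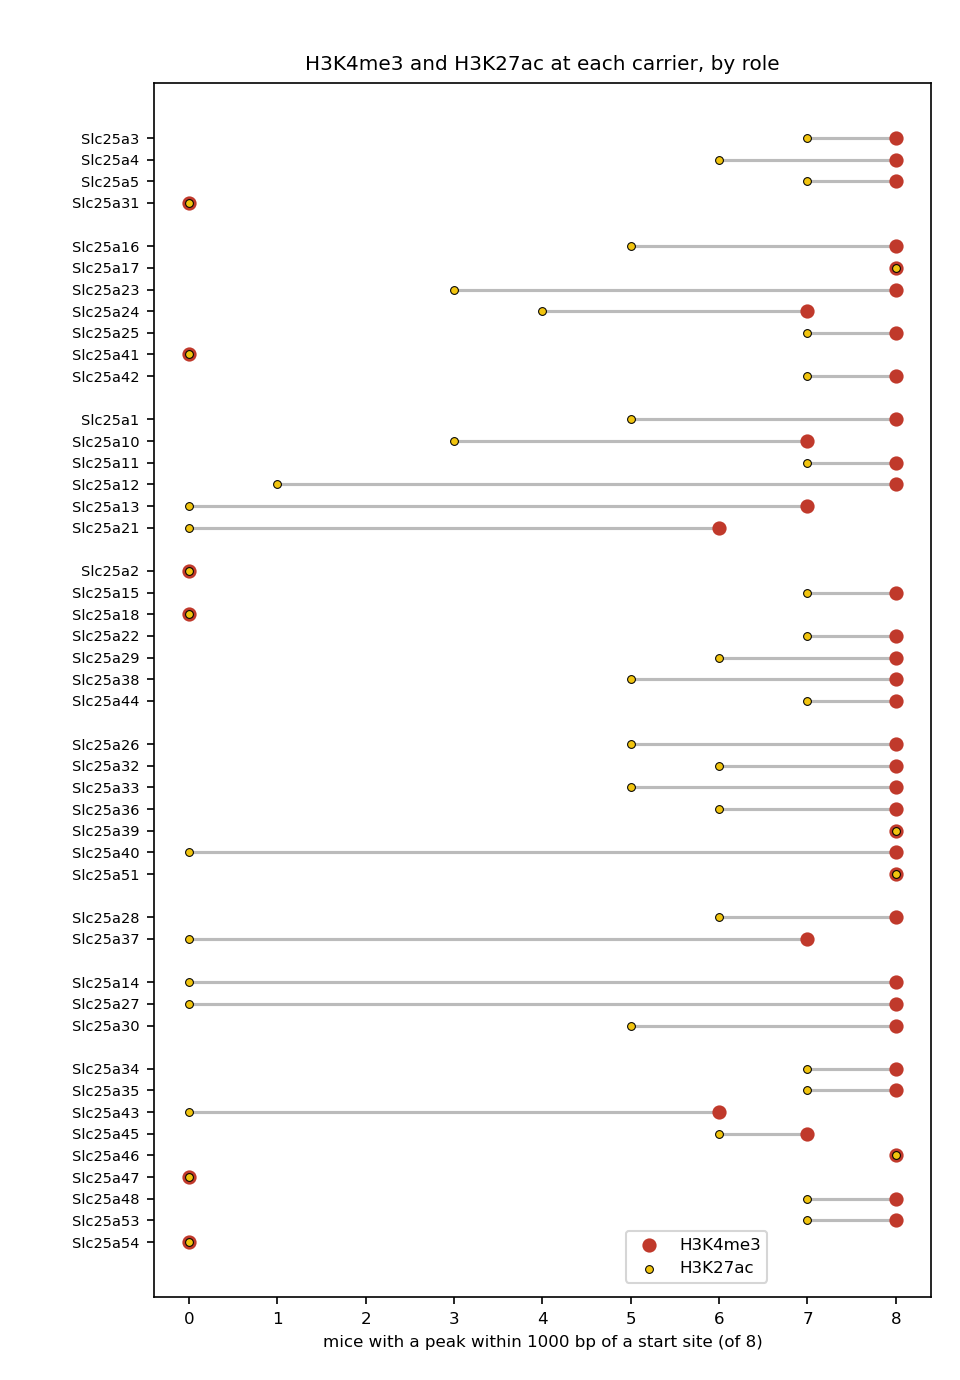
For each of 45 carriers, in blocks by role, the number of mice (of 8) with an H3K4me3 peak (red) and an H3K27ac peak (yellow) is joined by a grey line. Long lines mark 8 carriers with H3K4me3 in 6 or more mice and H3K27ac in 2 or fewer, such as Slc25a40, Slc25a12 and Slc25a37, and 6 carriers sit at 0 for both marks.

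The 6 carriers without H3K4me3 were Slc25a2, Slc25a18, Slc25a31, Slc25a41, Slc25a47 and Slc25a54. None had H3K27me3 or H3K27ac within 1000 bp of a start site. Of all 7706 genes without H3K4me3, 4.36% had H3K27me3 in at least 1 mouse, and the H3K27me3 lists held 20 to 309 peaks in 6 of the mice. Slc25a47, a carrier known from liver, was the one of the 6 with another mark near a start site. This was a weak H3K4me1 peak in mice 2 and 5 at fold enrichments of 4.80 and 3.73. Elsewhere within the gene, Slc25a47 had H3K27ac in 6 mice and Slc25a41 in 1. The span of Slc25a47 begins beside Slc25a29, and these peaks were not assigned to either gene. Base content was read from 250 bases before to 50 from the most upstream start. The observed over expected CpG ratio of these 6 ranged from 0.11 in Slc25a18 to 0.78 in Slc25a31, with a median of 0.40, beside 0.17 for all genes without H3K4me3. The 40 carriers with H3K4me3 had a median of 0.65, beside 0.74 for all genes with it. The groups overlapped. Slc25a34, with H3K4me3 in 8 mice and H3K27ac in 7, held a single CpG in this window and the lowest ratio of all carriers, 0.038. Slc25a40, without H3K27ac, held 49 CpG, the most of all carriers, at a ratio of 1.08. The 7 carriers with H3K4me3 but no H3K27ac had a median ratio of 0.54, and the 23 with H3K27ac in 6 or more mice one of 0.67.

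**Figure D4:**
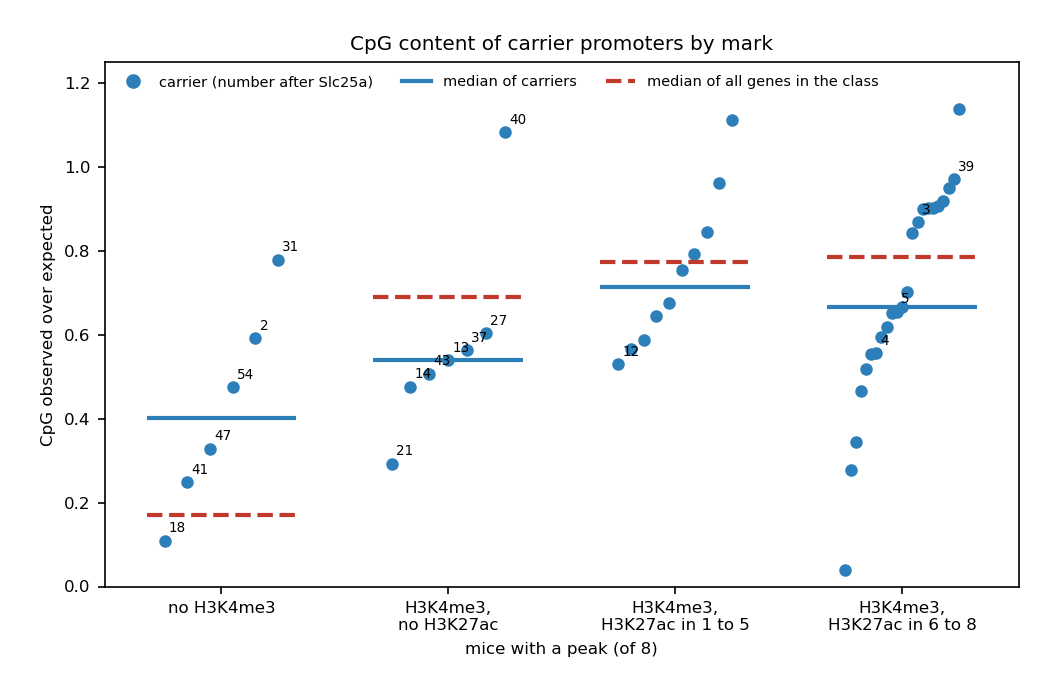
The observed over expected CpG ratio of each carrier's promoter (points, some numbered by symbol) is plotted by mark class, with the median of the carriers (blue line) and of all genes in the class (red dashes). Slc25a31 lies at 0.78 without H3K4me3 and Slc25a40 at 1.08 without H3K27ac, so that the classes overlap.

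The same 300 bases were searched on both strands for 9 short motifs, and a match is a description of letters. GGGCGG, the GC box, was in 32 carriers (69.6%), beside 44.9% of all genes. TATAAA was in 1 carrier, Slc25a4 (2.17%), beside 12.5% of all genes. CCAAT was in 22 (47.8%, beside 38.8%), CCGGAAG, an ETS core, in 7 (15.2%, beside 11.2%), GCGCATGC, the NRF1 core, in 2 (4.35%, beside 3.81%) and AAGATGGCG, for YY1, in 1 (2.17%, beside 1.79%). TGACG, the core of a cAMP response element, was in 13 (28.3%, beside 23.5%), and its full form TGACGTCA, which contains it, was in Slc25a26 and Slc25a36 (4.35%, beside 2.498%). TCAAGGTCA, for the ERR receptors, was in none of the carriers, beside 0.442% of all genes.

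Whether a gene had H3K4me3 in more mice than H3K27ac was asked gene by gene with Fisher's exact test (two-sided, 8 lists against 8, Benjamini-Hochberg adjustment over 14382 genes with either mark). H3K4me3 was in more mice at 21.8% of these genes and at 8 of the 40 carriers tested, a share close to that background. H3K27ac was in more mice at 0.139% of genes and at no carrier. The 8 were Slc25a12, Slc25a13, Slc25a14, Slc25a21, Slc25a27, Slc25a37, Slc25a40 and Slc25a43. At Slc25a14, Slc25a27 and Slc25a40 the counts were 8 mice against 0 (exact p = 0.000155, adjusted p = 0.00457). At Slc25a12 they were 8 against 1 (exact p = 0.0014, adjusted p = 0.0115), and at Slc25a13 and Slc25a37 they were 7 against 0 with the same p. Slc25a21 and Slc25a43, with 6 against 0, had an exact p of 0.00699 and an adjusted p of 0.0346. Slc25a23, with 8 against 3, did not pass (adjusted p = 0.0936). Both marks came from the same mice, and the exact sign test within mice, as a block, called neither a carrier nor any other gene, since the smallest p it allows for 8 mice, 0.00781, did not pass the adjustment over all genes. Unadjusted, the same 8 carriers had an exact sign test p between 0.00781 and 0.0313.

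Where both marks were present in every list, their ranks were compared as normal scores (the rank within a list turned into a normal quantile) with limma, over 798 genes that included 5 carriers. H3K27ac ranked higher at 8.9% of genes and H3K4me3 at 8.15% (adjusted p under 0.05), and 0 of the 5 carriers passed in either direction. At an unadjusted p under 0.05, 3 of the 5 did, beside 257 of the 798 genes. With the mouse as a block, 36.3% of genes were called in either direction and 2 carriers passed. Slc25a39 ranked higher for H3K27ac by 0.87 ± 0.28 (SE, adjusted p = 0.0197), and Slc25a17 ranked higher for H3K4me3, with a difference of -0.74 ± 0.25 (adjusted p = 0.0277). Mouse 7 decided how many genes could be ranked. Without it, 3686 genes and 16 carriers entered a fit that did not have the mouse as a block and so left the pairing of the marks aside. There H3K27ac ranked higher at 12.6% of genes, and 4 carriers passed in that direction and none in the other. These were Slc25a48 (1.99 ± 0.39, adjusted p = 0.000562), Slc25a51 (1.41 ± 0.37, adjusted p = 0.00607), Slc25a39 (1.37 ± 0.44, adjusted p = 0.0219) and Slc25a3 (1.39 ± 0.49, adjusted p = 0.0379). Genes enter such a fit only when marked in every list, so that the carriers without H3K27ac took no part in it.

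**Figure D5:**
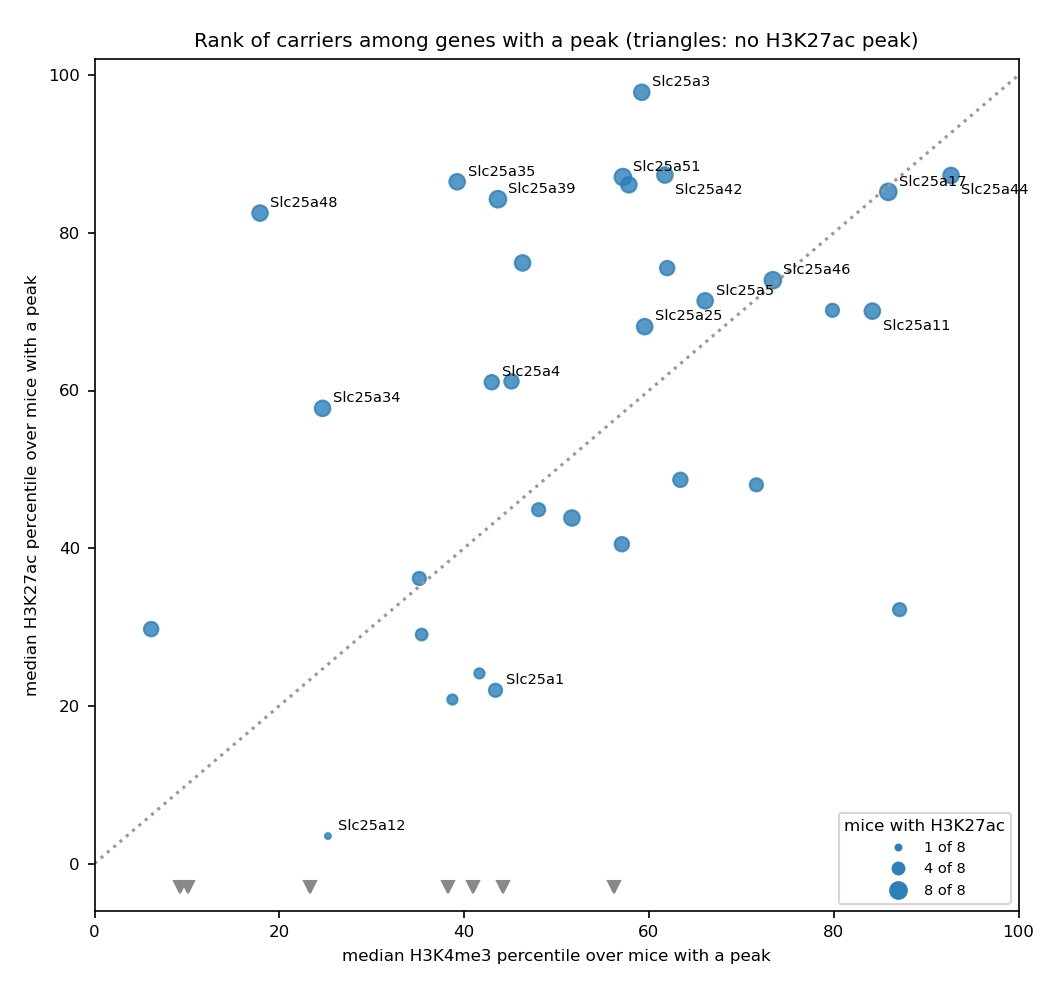
The median H3K27ac percentile of each carrier shown over the mice with a peak is plotted against its median H3K4me3 percentile, with point size for the number of mice with H3K27ac and triangles for carriers with none. Slc25a3 at 97.8 and Slc25a48 at 82.5 stand well above the dotted line of equal percentile, and Slc25a12 at 3.48, from 1 mouse, well below it. The lists of both marks covered unlike numbers of genes, so equal percentiles are not equal standing among all genes.

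Cold treatment and HFD were compared first by presence. No carrier had a mark in all 4 mice of one temperature and none of the other 4, and none was split by diet in this way. Over all genes with the mark in any mouse, the temperatures split 0.0422% for H3K4me3, 0.119% for H3K27ac and 0% for H3K4me1, and the diets 0.183%, 0.101% and 0.061%. H3K27ac was in more HFD than NCD mice at 0 carriers and in fewer at 24, beside 644 and 8161 of all genes. Mouse 7 lacked 27 and mouse 10 lacked 14 of the 33 acetylated carriers, and both were on HFD with the shortest H3K27ac lists, whose part in this difference was not tested. With temperature, H3K27ac was in more cold than warm mice at 14 of the 46 carriers and in fewer at 9, beside 5103 and 1686 of all 21938 genes. H3K27ac was missing in the warm mouse 7 alone at 11 carriers and 2914 genes, each counted here as more in the cold. It was missing in the cold mouse 10 alone at 1 carrier and 25 genes. The part of list length in this difference was not tested either. The largest differences by temperature were of 2 mice for H3K27ac, at Slc25a45 (4 cold and 2 warm) and Slc25a24 (1 cold and 3 warm). For H3K4me1, Slc25a11 had a peak in 3 cold mice and no warm mouse. Slc25a10 and Slc25a45 had one in 3 NCD mice and no HFD mouse. The lists of mice 1, 7 and 10 held 592, 12 and 18 H3K4me1 peaks and none at a carrier. Slc25a11 was accordingly split by temperature once mouse 10 was left out, and Slc25a10 and Slc25a45 by diet once mouse 1 was left out, when 0.285% and 4.82% of all genes with H3K4me1 were split.

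By rank, no carrier and no other gene passed an adjusted p of 0.05. With 2 mice per condition this does not show that the ranks were alike. Only genes with a peak in all 8 mice entered, so those that gained or lost a mark took no part. In limma fits with temperature and diet as terms, H3K4me3 was tested at 9499 genes with 33 carriers and H3K27ac at 821 genes with 5 carriers. The share called was 0% for temperature, diet and their interaction in both marks. At an unadjusted p under 0.05, the H3K4me3 fits held 505 genes and 2 carriers for temperature, 558 and 1 for diet, and 426 and 3 for the interaction. The H3K27ac fits held 28, 61 and 63 genes and 0, 0 and 1 carriers. The carrier nearest to a call by temperature was Slc25a4. Its H3K4me3 percentiles were 27.4, 52.8, 8.56 and 11.0 in the warm mice 1, 2, 7 and 8, and 59.5, 61.3, 33.2 and 70.2 in the cold mice 4, 5, 10 and 11. The cold mouse 10 was below the warm mouse 2, and the groups therefore overlapped. The cold minus warm difference was 1.10 ± 0.51 normal scores (SE), with an adjusted p of 0.911. Slc25a16 went the other way, at -1.10 ± 0.53 (adjusted p = 0.911). By diet, Slc25a34 was higher on HFD by 1.297 ± 0.587 (adjusted p = 0.83). Its H3K4me3 percentiles were 8.26, 1.40, 55.8 and 17.3 in the NCD mice 1, 2, 4 and 5 and 33.7, 26.4, 57.7 and 23.0 in the HFD mice 7, 8, 10 and 11. These values also overlapped. When a peak had to cover the start site itself, Slc25a34 had H3K4me3 in all 4 cold mice and no warm mouse, while 0.0665% of genes with the mark were split by temperature in either direction. This split rested in part on the edges of peaks. The start site is base 141623821 of chromosome 4, on the minus strand. The H3K4me3 peaks of the warm mice 1 and 8 ended just short of it, at bases 141623812 and 141623820. Those of the warm mice 2 and 7 ended further from it, at bases 141623069 and 141623244.

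H3K4me1 lay at 18 carriers in at least 1 mouse (39.1%, beside 22.4% of all genes). All peaks fell in mice 2, 4, 5, 8 and 11, at 11, 6, 12, 5 and 2 carriers. Slc25a25 was the most frequent, with a peak in each of these 5 mice at fold enrichments of 6.92, 6.02, 5.27, 5.67 and 5.76, followed by Slc25a22 in 4 mice. Slc25a10, Slc25a11 and Slc25a45 had it in 3 mice each. Of the 18, 17 also had H3K4me3 in 6 or more mice. The summits of the H3K4me1 peaks had a median position of -511 bp, before the start, while those of H3K4me3 over 40 carriers lay at 180.3 bp, inside the gene.

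Further gene lists of the same organelle were described for reference. All 15 genes of the import machinery of carriers, the outer membrane TOM complex with the TIM22 complex and its small chaperones, had H3K4me3 in all 8 mice and H3K27ac in 6 or more. Timm10 and Timm8b had H3K27ac in all 8, at median percentiles of 87.0 and 93.4. Of 23 other mitochondrial transporters and channels, 23 had H3K4me3 and 14 had H3K27ac in 6 or more mice. Ucp1, the uncoupling protein of brown fat, had H3K27ac in 8 mice at a median percentile of 95.9 (60.0 to 99.6), and Ucp3 in 8 mice at 93.7. Ucp2 had it in 5 mice at 50.4. Mpc1 and Mpc2, the subunits of the pyruvate carrier, had it in 7 and 8 mice at 92.7 and 85.2. For H3K4me3, Ucp1 lay at a median percentile of 47.2 (36.7 to 82.8). Mcub and Micu2, of the calcium uniporter, had no H3K27ac in any mouse. Beside these, 23 of 46 carriers had H3K27ac in 6 or more mice, as had 6050 of 21938 genes.

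A peak at a shared promoter cannot be assigned to one gene. Of the 46 carriers, 16 had a start site of another gene of any type within 1000 bp and 8 one of a protein-coding gene, in every case on the opposite strand. The nearest protein-coding ones were Zcchc18, 123 bp from Slc25a53, Dbf4, 134 bp from Slc25a40, and Dcaf13, 149 bp from Slc25a32. Slc25a11 lay 229 bp from Rnf167, and its H3K4me3 and H3K27ac summits had median positions of -676.5 and -642 bp from its start, on the side of Rnf167.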

How the data were processed

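ChIP-Seq peaks of H3K4me3, H3K27ac, H3K4me1 and H3K27me3 from iBAT of 8 mice, 2 per condition, were analysed. Inputs were not used here beyond their part in the peak calls. Per the labels and methods, the authors trimmed reads with cutadapt, aligned them to GRCm38 with Bowtie2, and called peaks in each library against input with MACS2. The sources used here give no version and no threshold for these tools. The deposited peak tables hold, per peak, a fold enrichment (ratio) over the expected background, a −log10 p-value and a −log10 q-value, of which the smallest was 1.301, and a peak score and summit position. They hold no read counts, so that the depth of the libraries is unknown and list length depends on it. A longer list covers more genes, and the absence of a peak is not the absence of the mark.

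Start sites came from the GENCODE M21 basic annotation of GRCm38, and promoter bases from GRCm38.p6. Peaks were joined to genes in Python 3.11.15 with pandas 2.3.3, NumPy 2.4.6 and SciPy 1.17.1, and figures were drawn with matplotlib 3.10.9. Presence was compared with Fisher's exact test. Ranks (normal scores of the highest fold enrichment, for genes with a peak in every list of the fit) were compared with limma 3.58.1 in R 4.3.3. Fits of temperature and diet had both as terms, and fits between marks had the mark as the only term. The scripts were tested on simulated data. Adjusted p-values are Benjamini-Hochberg over all genes tested. Both marks came from the same animals by the labels' mouse numbers, which pairs them. In deviations of log10 list length from the condition mean, H3K4me3 and H3K27ac were correlated at r = 0.928 over 8 mice. The main fit between marks was therefore also run with the mouse as a block, but those leaving out a mouse were not. Temperature and diet were compared between different mice, and p-values measure the spread between these libraries.

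Carriers named in the text were the "always named" list of main carriers, those called in any fit or split by temperature or diet, the 6 highest and 3 lowest by median H3K27ac percentile, those without H3K4me3, those with H3K4me3 in 6 or more mice and H3K27ac in 2 or fewer, and the ones most like Slc25a4. One carrier that counts among the 46 is not reported here by itself, nor drawn where carriers are shown by name. Other carriers were named after their values were seen. The members and all gene lists were chosen with earlier results of these data known. Alternatives covered the peak threshold, the window, the start sites used, list length, the ranked value, the covariates and leaving out each mouse. Leaving out mice 7 and 10 together was chosen after seeing the data.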

Additional observations from a re-analysis of the deposited data

Results flagged for a closer look

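Among 44 groups of values examined, 6 held a mouse that stood apart from the others by Dixon's criterion. The groups overlapped, and in some the other values were tied, so the rate that chance would give is not known. Mouse 7 had H3K4me3 at 33 carriers, against 38 to 40 in the other 7 mice and 40 in each of the other 3 warm mice. Among the cold mice, mouse 10 had H3K4me3 at 38 carriers, against 40 in each of the other 3. Mouse 7 had H3K27ac at 6 carriers, against 29 to 33 in the other 3 warm mice. These libraries had the shortest H3K4me3 and H3K27ac lists. Slc25a5, the widely expressed ADP/ATP carrier, had an H3K4me3 percentile of 21.3 in mouse 2, against 55.9 to 86.5 in the other mice. Slc25a51, the NAD carrier, had an H3K27ac percentile of 47.8 in mouse 7, against 78.0 to 99.2 in the other mice. That of mouse 7 was taken among 847 genes and those of the other mice among 4156 to 9847. These percentiles are therefore not on one scale.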

How the results depend on the processing

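Of 330 alternative values for 24 results, 290 stayed within 1.5 times the reported value and 40 moved further. All are counts, many of them 0 in both settings, so a change of direction was not examined. H3K4me3 in every mouse was found at 33 carriers, at 19 with peaks of a −log10 q of at least 5, at 21 with the 10000 highest peaks of each list and at 10 with a peak over the start site itself. H3K27ac in every mouse was found at 5 carriers, at 1 with the −log10 q minimum, at 3 with the summit within 1000 bp, at 0 over the start site, at 9 within 2500 bp and at 20 without mice 7 and 10. Carriers with H3K4me3 but no H3K27ac numbered 7, and 13 over the start site. Carriers with H3K4me1 fell from 18 to 3 with the −log10 q minimum, 3 over the start site and 9 with the 10000 highest peaks. The presence test between marks called 3134 genes, and 4977 over the start site. With the replicate block (the exact sign test within mice) it called 0 genes and 0 of the 8 carriers, and the exact test cannot give a p under 0.00781 with 8 mice. Temperature split 1 carrier in place of 0 over the start site (Slc25a34) and 1 without mice 7 and 10 (Slc25a11). The rank test between marks called 136 genes, 290 with the mouse as a replicate block, 29 with the −log10 q minimum, 89 with log2 fold enrichments and 331 with the −log10 p ranked, and called 2 carriers with the block and 3 (Slc25a17, Slc25a46 and Slc25a51) with the −log10 p. Ranking by −log10 p called 6 genes and no carrier for H3K4me3 by diet. The cause of these shifts was not tested. Leaving out 1 mouse at a time, H3K4me3 in every mouse ranged from 33 to 38 carriers, H3K27ac in every mouse from 5 to 16 (16 without mouse 7), the genes called by presence from 1750 to 2731 and the carriers from 6 to 8, carriers split by temperature from 0 to 1 (1 without mouse 10) and by diet from 0 to 2 (2 without mouse 1), genes called by rank between marks from 83 to 909 and carriers from 0 to 4 (909 and 4 without mouse 7), and genes called for the H3K27ac interaction from 0 to 20 (20 without mouse 8, no carrier). No replicate block applies to temperature or diet, since each mouse had 1 of each. The precision of all counts is limited by 2 mice per condition and by peak lists without read counts.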
